A study of Mus musculus with 60 samples.

Results

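In all, 9 genes were listed for the extension, branching and blood-group capping of N-acetyllactosamine (LacNAc) chains, chosen as an enzyme group, and 8 of these 9 are described here, out of 909 genes with a symbol on the array. The 8 were B3gnt2, B3gnt4, B3gnt5, B3gnt7 and B3gnt9, which belong to the beta-3-N-acetylglucosaminyltransferases, the I-branching enzyme Gcnt2, the alpha-galactosyltransferase Ggta1 and the blood-group transferase Abo. Each was measured by 1 probe set. B3gnt8, the remaining listed gene, was not analysed here. The probe set of B3gnt2 carries a suffix for probes that also match other transcripts, so its value may not be from B3gnt2 alone.

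LacNAc is a disaccharide of galactose and N-acetylglucosamine that is repeated on N-glycans, O-glycans and glycolipids, where it carries blood-group antigens and is bound by galectins. Chains grow when a beta-3-N-acetylglucosaminyltransferase adds N-acetylglucosamine to a terminal galactose and a beta-4-galactosyltransferase then adds the next galactose. Gcnt2 turns linear chains (the i antigen) into branched ones (the I antigen), and chains end with sialic acid, fucose, sulfate, alpha-galactose placed by Ggta1, or the A and B sugars placed by Abo.

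The series measured glycan-related mRNA in total RNA of healthy mouse tissues on 60 arrays from 18 animals, and its gene expression results served to choose tissues for glycan analysis. St6galnac2 knockouts (KO) were set against wild type (WT, +/+) of the same line in thyroid, lymph node and brain, with 3 animals of each genotype, and in intestine, with 2 KO and 3 WT animals. B4GALNT1 -/- / B4GALNT2 -/- double knockouts (DKO) were set against WT of that line in thymus (5 DKO and 3 WT animals), testes (3 and 3), mammary gland (5 and 2) and kidney (5 and 4). The mammary glands came from 3 females and 4 males, and the kidneys from 3 females and 6 males. In thymus all WT animals were male, while the DKO animals were of both sexes. Both sexes were also used in the 4 tissues of the St6galnac2 line. Tests between tissues had no sex term. C57 WT mice gave 3 brain and 3 small intestine arrays. Ages, and the strain of the 2 lines, are not given in the labels. Each tissue of the lines was sampled in 1 line, so tissue and line cannot be told apart between tissues of different lines. In bulk tissue, fewer cells of a type and less RNA per cell cannot be told apart, and p-values measure the spread between animals.

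Values are log2 expression values on the authors' scale, between 2.11 and 14.07, with a median over all values of 5.48 and a 25th percentile of 4.21. Levels of different genes are not compared, since probe sets differ in brightness. Of the 60 arrays, 4 did not resemble their labelled tissue. Their correlation with it across genes was under 0.3, against a median of 0.941 for the other 56. They were the first brain array of WT animal 9099, which correlated at 0.958 with intestine and held the intestinal gene Reg3b at 13.46, the intestine array of the same animal, which correlated at 0.947 with brain and held the myelin gene Mag at 10.47, and 2 WT arrays labelled thymus (animals N3740 and N3738), with the secretory gene Prol1 at 13.41 and 13.51. Where leaving them out changes a call, a sign or a count of these genes, both values are given. All measured markers of intestine and lymph node were highest in their tissue, as were Galntl5 in testes (median 11.74) and Chga in thyroid (12.78). For brain this held for 4 of 5 markers, the exception being Fut9, at 9.33 in brain against 10.76 in kidney. For kidney Umod was highest there (12.23), and Havcr1 was not, at 4.64 in kidney against 4.75 in the highest other tissue. In arrays labelled thymus the markers Ccl25, Ccr9 and Cd69 had medians of 4.54, 3.85 and 3.85, so the label was not borne out there, and the mammary gland markers were not measured. Below, thymus is the label, and arrays unlike thymus are unlike the other arrays with that label. On the arrays that resembled their tissue, Prol1 was highest in mammary gland, at a median of 9.74, against 2.47 in the lowest tissue. None of the targeted genes was lower past the test in its own knockout line. St6galnac2 differed by 0.28 in thyroid and -0.17 in lymph node, and by -0.57 in brain and 0.82 in intestine with all arrays, against -0.10 and -0.05 without those unlike their tissue. In thymus B4galnt1 differed by -2.47 and B4galnt2 by -1.66 with all arrays, against -0.38 and -0.07 without them. In testes, mammary gland and kidney the differences were -0.32, 0.75 and -0.07 for B4galnt1 and 0.15, -0.09 and 0.03 for B4galnt2. B4galnt2 values in mammary gland ran from 3.74 to 8.53 in DKO, against 3.93 and 8.09 in WT. The source of that spread was not tested. Whether these probe sets lie in the deleted parts is not given in the sources used here.

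Promoter windows from 250 bases before to 50 bases after the start were found for 7 of the 9 listed genes in RefSeq (GRCm38.p6), 9 windows in all. Gcnt2 had several windows, and whether its probe set reads every transcript form is not given in the sources used here. The windows of B3gnt5 and Ggta1 are shown because both genes were highest in lymph node, that of B3gnt2 because it was highest in kidney, and that of B3gnt4 because it was highest in testes. Capitals mark matches, on either strand, to GGGCGG (the GC box), CCAAT (the CCAAT box) and TATAAA (the TATA box).
B3gnt5, chr16:19759984-19760283, plus strand: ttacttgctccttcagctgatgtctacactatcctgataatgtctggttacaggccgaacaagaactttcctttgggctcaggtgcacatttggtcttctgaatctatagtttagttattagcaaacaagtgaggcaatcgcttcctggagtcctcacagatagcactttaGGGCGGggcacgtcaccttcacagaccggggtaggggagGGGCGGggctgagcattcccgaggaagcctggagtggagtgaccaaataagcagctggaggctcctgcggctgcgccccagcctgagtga
Ggta1, chr2:35461400-35461699, minus strand: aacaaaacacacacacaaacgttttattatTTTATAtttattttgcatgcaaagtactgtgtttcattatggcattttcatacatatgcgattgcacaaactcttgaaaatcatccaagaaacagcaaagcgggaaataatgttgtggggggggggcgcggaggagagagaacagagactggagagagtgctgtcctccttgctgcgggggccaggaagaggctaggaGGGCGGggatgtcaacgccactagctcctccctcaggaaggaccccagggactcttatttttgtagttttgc
B3gnt2, chr11:22859686-22859985, minus strand: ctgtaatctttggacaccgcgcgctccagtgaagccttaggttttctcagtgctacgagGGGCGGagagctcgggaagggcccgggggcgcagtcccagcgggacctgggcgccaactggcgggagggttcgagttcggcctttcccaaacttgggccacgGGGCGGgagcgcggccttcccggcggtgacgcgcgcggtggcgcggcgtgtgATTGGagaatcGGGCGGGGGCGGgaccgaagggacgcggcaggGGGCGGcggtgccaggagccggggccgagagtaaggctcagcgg
B3gnt4, chr5:123508232-123508531, plus strand: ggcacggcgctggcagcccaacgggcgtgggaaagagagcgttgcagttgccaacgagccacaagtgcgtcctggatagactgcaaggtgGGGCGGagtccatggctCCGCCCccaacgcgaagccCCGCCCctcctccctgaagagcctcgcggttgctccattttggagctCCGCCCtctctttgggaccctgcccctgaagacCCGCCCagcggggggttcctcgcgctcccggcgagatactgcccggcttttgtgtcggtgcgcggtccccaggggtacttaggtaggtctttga
The B3gnt5 and Ggta1 windows had a GC content of 53.3% and 46.7% with 9 and 8 CpG sites, close to the medians of 52.7% and 7 over 32851 mouse promoters. The B3gnt2 window had 71.3% GC and 37 CpG sites, and the B3gnt4 window 66.3% and 25. GGGCGG occurred 2 times in B3gnt5, 1 time in Ggta1 and 5 times each in B3gnt2 and B3gnt4, and 35.7% of all promoters hold it. Ggta1 alone among the 4 held TATAAA, on the opposite strand near the far end of the window, a motif found in 13.6% of promoters. B3gnt2 alone among the 4 held CCAAT, on the opposite strand, and 37.4% of promoters hold that motif. CGGAAG, the ETS core, was in none of the 4 and in 16.9% of promoters. No match overlapped that of another motif. The lymph node genes B3gnt5 and Ggta1 shared only GGGCGG among the 4 motifs searched.

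Across tissues, every one of the 8 genes varied. Without the 4 arrays unlike their tissue, the highest and lowest tissue medians of a gene lay 1.13 (B3gnt7) to 4.62 (B3gnt5) log2 units apart, with a median over the 8 genes of 2.105, against 1.98 over all 909 genes. A range of at least 1 was seen for 8 of 8 genes and for 75.7% of all genes. The tissue medians below include the C57 arrays, while the tests leave C57 out and compare each tissue with the mean of the other 7 in limma. A call needed a size of at least 1 log2 unit and an adjusted p under 0.05.

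**Figure D1:**
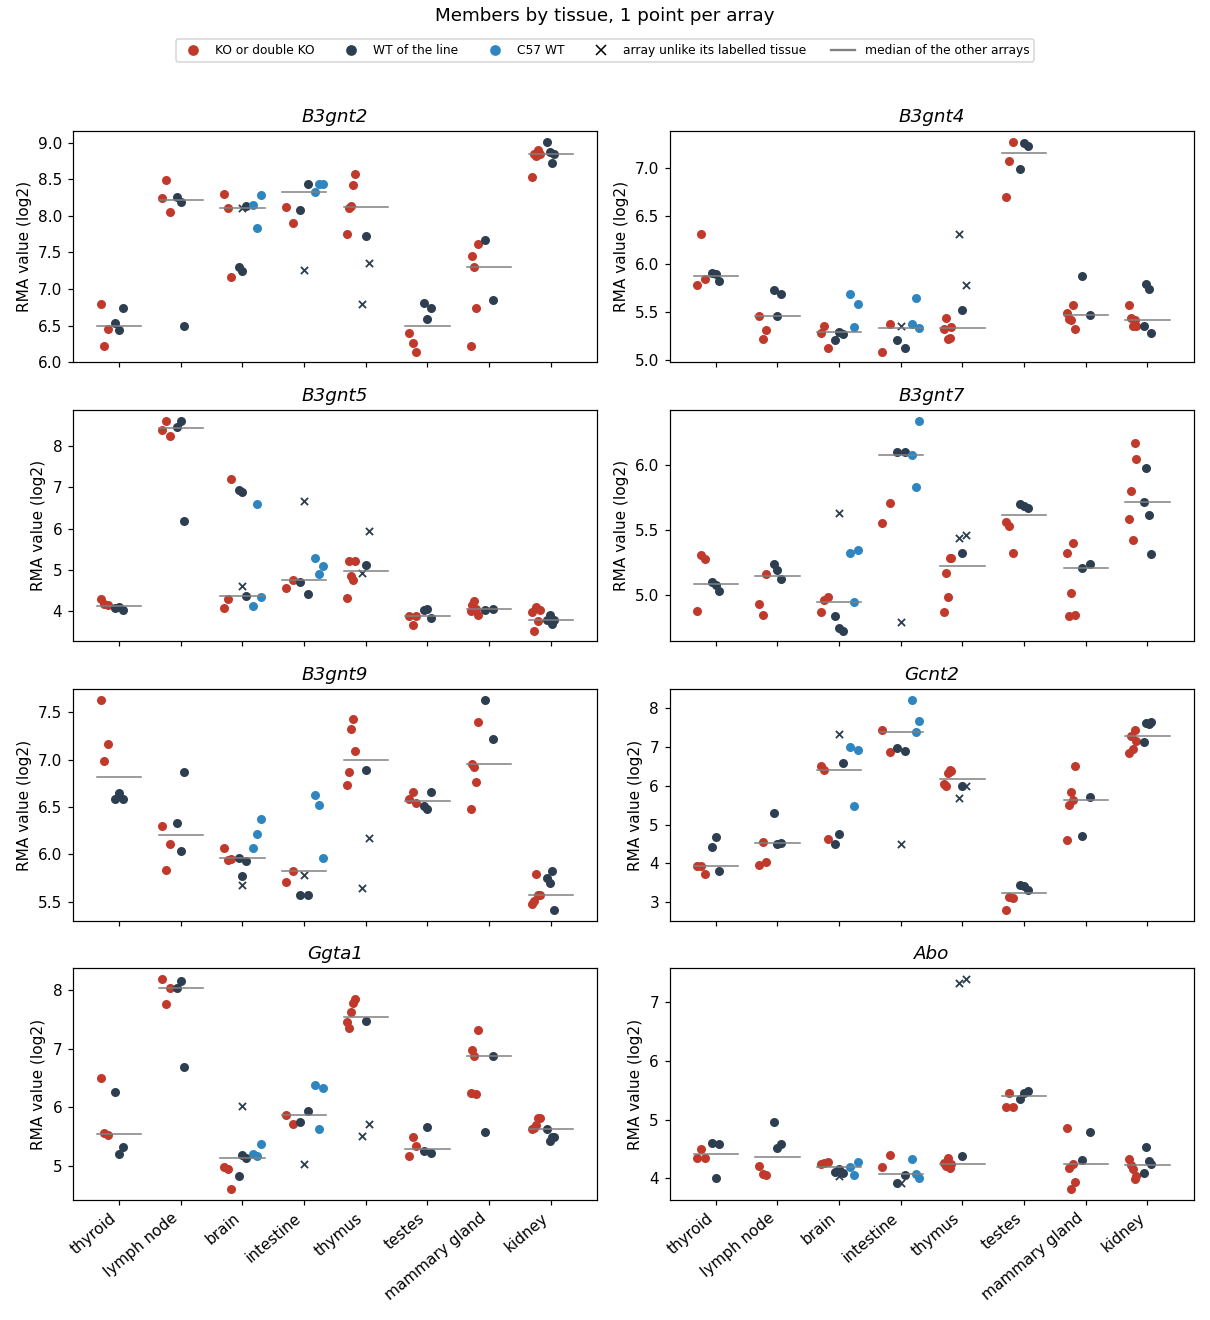
Log2 expression value (vertical axis) of the 8 genes by tissue (horizontal axis), 1 point per array, with KO or DKO, line WT and C57 WT arrays in different colours, crosses for the 4 arrays unlike their labelled tissue and bars for the median of the other arrays. B3gnt5 and Ggta1 were highest in lymph node, B3gnt4 and, apart from 2 crosses in thymus, Abo in testes, and Gcnt2 in intestine and kidney.

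Lymph node had the largest tissue difference of the 8 genes. B3gnt5, which starts the lacto-series glycolipids by adding N-acetylglucosamine to lactosylceramide, and Ggta1, which caps chains with alpha-galactose, were both higher there, and Gcnt2 was lower. B3gnt5 had values of 8.38, 8.59 and 8.23 in KO lymph nodes, against 8.46, 8.60 and 6.19 in WT lymph nodes. In the other tissues the B3gnt5 medians lay between 3.80 in kidney and 4.98 in thymus, so 5 of the 6 lymph node arrays stood more than 3 log2 units above every other median. The difference from the other 7 tissues was 3.58 ± 0.29 (SE; limma, adjusted p = 9.6e-14). Ggta1 had 8.18, 7.75 and 8.04 in KO lymph nodes, against 8.03, 8.16 and 6.68 in WT lymph nodes, and differed by 1.98 ± 0.20 (adjusted p = 3.1e-11). Gcnt2 had a lymph node median of 4.51 and differed by -1.02 ± 0.25 (adjusted p = 6.6e-04). These are 3 of 8 genes called in lymph node, against 19.5% of all 963 probe sets.

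The low value of both B3gnt5 and Ggta1 came from WT animal 9094. Its lymph node array correlated least with its labelled tissue among the 56 arrays, at 0.513. All 5 measured lymph node markers were lower on it than on the other 5 lymph node arrays, among them Ccr7 at 6.24 against 9.28 to 10.01 and Cd22 at 8.74 against 10.37 to 11.02. Of 5 measured connective tissue genes, 4 were higher on it than on the others, Lum at 9.32 against 4.89 to 6.42, Dcn at 11.71 against 10.27 to 11.07, Pdgfra at 9.29 against 7.43 to 8.23 and Col14a1 at 6.85 against 5.53 to 6.57, and Fmod was lower, at 5.62 against 6.35 to 6.61. B3gnt2 was also lower on this array, at 6.50 against 8.06 to 8.49. The part of these differences in the result was not tested. Without animal 9094 the B3gnt5 difference was 3.90 and the Ggta1 difference 2.21. The Gcnt2 difference lay at the size limit: it was -0.92 without animal 9094, and it was no longer called when any 1 of 5 animals (9093, 9094, 9099, N5891 or N9686) was left out, or with WT groups only (-0.67, adjusted p = 0.27).

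In the order of tissues, B3gnt5 in lymph node lay 2.64 above brain, the next tissue (adjusted p = 1.6e-07), and no other step between neighbouring tissues passed the test. The brain level is a mean of low and high arrays. On the arrays that resembled brain, B3gnt5 was either 4.07 to 4.37 or 6.59 to 7.20. The lymph node of WT animal 9094, at 6.19, lay below the high ones. Ggta1 had several levels. Its values in arrays labelled thymus were 7.36 to 7.84 in DKO, against 7.47 in WT animal N9700 and 5.72 and 5.51 on the WT arrays unlike thymus. With all arrays, lymph node lay 0.89 above thymus (adjusted p = 0.0033). Without the 4 arrays that step was 0.27 (adjusted p = 0.42), thymus lay 1.06 above mammary gland (adjusted p = 0.0015) and mammary gland 0.66 above intestine (adjusted p = 0.018). Thymus then differed from the other 7 tissues by 1.57 ± 0.21 for Ggta1 (adjusted p = 1.2e-07), 1 of 8 genes called against 13.7% of all probe sets, while with all arrays the difference was 0.96 ± 0.18 and 0 of 8 were called, against 8.41%. At the low end, Ggta1 had a brain median of 5.14 and differed there by -1.21 ± 0.20 (adjusted p = 1.4e-06), or -1.38 ± 0.16 without the 4 arrays. It was the 1 gene of 8 called in brain, against 26.8% of all probe sets.

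Kidney was the highest tissue for B3gnt2, the main poly-LacNAc synthase, and was level with intestine for Gcnt2. B3gnt2 had a lowest value of 8.53, a median of 8.85 and a highest of 8.90 in the 5 DKO kidneys, against 8.72 to 9.01 in the 4 WT kidneys. Kidney lay 0.86 above intestine (adjusted p = 0.0028), and exceeded the other 7 tissues by 1.45 ± 0.16 (adjusted p = 1.6e-10). The steps from intestine through lymph node, brain and thymus to mammary gland did not pass the test with all arrays, while without the 4 the step from brain to mammary gland did (0.54, adjusted p = 0.040), and thyroid and testes formed the low end with medians of 6.50 and 6.49. Thyroid differed from the other 7 tissues by -1.17 ± 0.18 (adjusted p = 1.3e-06) and testes by -1.22 ± 0.18 (adjusted p = 2.3e-07), and the difference between them was 0.04 (adjusted p = 0.90). The testes difference was under the size of 1 after a second quantile normalization (-0.87) and with WT groups only (-0.90).

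Gcnt2 had the widest range after B3gnt5. Its kidney values were 6.84 to 7.41 in DKO, against 7.11 to 7.63 in WT, and its intestine values were 7.43 and 6.87 in KO, against 6.96 and 6.88 in WT and 4.49 on the WT array unlike intestine. Kidney exceeded the other 7 tissues by 2.21 ± 0.21 (adjusted p = 9.7e-12), and intestine by 1.44 ± 0.28 (adjusted p = 2.6e-05), or 1.87 ± 0.26 without the 4 arrays. The step from kidney to intestine, 0.67 with all arrays and 0.26 without the 4, did not pass the test (adjusted p = 0.091 and 0.47). The step from intestine to thymus was 0.58 with all arrays (limma, adjusted p = 0.14). Without the 4 it was 0.93 and passed (adjusted p = 0.030). The thyroid difference was -1.47 ± 0.25 (adjusted p = 5.5e-06). Testes had the lowest values of all tissues, 2.81, 3.13 and 3.12 in DKO, against 3.45, 3.43 and 3.33 in WT, and no other tissue's array reached down to them. All these testes values, and the thyroid median of 3.94, lay below the 25th percentile of all values, 4.21. The testes difference was -2.47 ± 0.25 (adjusted p = 2.8e-11), and thyroid lay 0.87 above testes (adjusted p = 0.024). Gcnt2 was the 1 gene of 8 called in intestine, against 20.8% of all probe sets, and B3gnt2 and Gcnt2 were the 2 of 8 called in thyroid, against 13.0%.

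Testes had 4 of the 8 genes called, against 27.7% of all probe sets. B3gnt4, a beta-3-N-acetylglucosaminyltransferase that can also extend LacNAc chains, was higher there. Its values were 6.70, 7.07 and 7.27 in DKO testes, against 6.98, 7.26 and 7.22 in WT testes. Every testes array lay above every array of the other tissues, where the highest B3gnt4 value was 6.31. The difference was 1.58 ± 0.08 (adjusted p = 7.2e-20), and the steps from testes to thyroid (1.16, adjusted p = 7.6e-12) and from thyroid to thymus (0.34, adjusted p = 0.012) both passed the test. Beside B3gnt2 and Gcnt2, B3gnt5 was also called lower in testes, with values of 3.68 to 3.89 in DKO, against 3.83 to 4.04 in WT, and a difference of -1.20 ± 0.29 (adjusted p = 4.5e-04). All these B3gnt5 values lay below the 25th percentile of all values, 4.21. Testes did not differ for B3gnt5 from kidney, mammary gland or thyroid (limma, adjusted p = 0.91, 0.73 and 0.63). The mean of the other 7 tissues includes lymph node, where B3gnt5 was high.

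Abo, which adds the A or B sugar to fucosylated chains, was highest in testes once the 4 arrays were set aside. It had 5.21, 5.45 and 5.22 in DKO testes, against 5.34, 5.45 and 5.48 in WT testes, while medians of the other tissues lay between 4.08 and 4.42, near the 25th percentile of all values. Without the 4 arrays, testes exceeded the other 7 tissues by 1.07 ± 0.09 (adjusted p = 2.8e-13) and lymph node, the next tissue, by 0.96 (adjusted p = 4.4e-09). With all arrays the difference was 0.93 ± 0.19, short of the size of 1. Thymus was then the next tissue, 0.06 below testes (limma, adjusted p = 0.87) and 0.90 above lymph node (adjusted p = 0.0019). The 2 WT thymus arrays unlike thymus held the highest Abo values of the series, 7.39 and 7.32, against 4.37 in WT animal N9700 and 4.17 to 4.34 in DKO. The thymus difference for Abo was 0.86 ± 0.17 with these arrays and -0.13 without them.

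B3gnt7, which extends sulfated LacNAc chains such as keratan sulfate, and B3gnt9 varied least among the 5 beta-3-N-acetylglucosaminyltransferases. B3gnt7 medians were 6.08 in intestine, 5.72 in kidney and 5.62 in testes and 4.95 to 5.22 elsewhere. Without the 4 arrays, the step from testes to thymus, 0.36, passed the test (adjusted p = 0.021), kidney did not separate from intestine or testes (adjusted p = 0.34 and 0.19), and intestine exceeded testes by 0.29 (adjusted p = 0.042). With all arrays neither call was made, the step from testes to thymus having an adjusted p of 0.059 and the difference of intestine from testes being 0.07 (adjusted p = 0.72). B3gnt9 had medians of 6.99 in thymus, 6.96 in mammary gland and 6.81 in thyroid, 6.56 in testes, 6.21 in lymph node and 5.57 to 5.96 in brain, intestine and kidney. Without the 4 arrays the steps from thyroid to testes (0.36, adjusted p = 0.017), testes to lymph node (0.32, adjusted p = 0.029) and lymph node to brain (0.31, adjusted p = 0.035) passed the test. With all arrays the steps from testes to lymph node and from lymph node to brain did not pass (adjusted p = 0.064 and 0.067), while the difference of thyroid from testes, then no longer neighbours, did (0.36, adjusted p = 0.044). With all arrays, neither gene had a tissue that differed from the other 7 by 1 log2 unit, although B3gnt9 came close in mammary gland, at 0.92 ± 0.12 (adjusted p = 2.6e-08), and kidney, at -0.83 ± 0.10 (adjusted p = 1.9e-09). The B3gnt9 difference in mammary gland passed that size with WT groups only, at 1.28 (adjusted p = 4.6e-04), and without animal N9686, at 1.03. Mammary gland had 1 of 8 genes called, B3gnt5 at -1.002 ± 0.30 (adjusted p = 0.0062), against 13.2% of all probe sets, and without the 4 arrays it had 0, with B3gnt5 at -0.96. Kidney had 3 of 8 called, B3gnt5 at -1.26 ± 0.25 beside B3gnt2 and Gcnt2, against 19.9%.

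**Figure D2:**
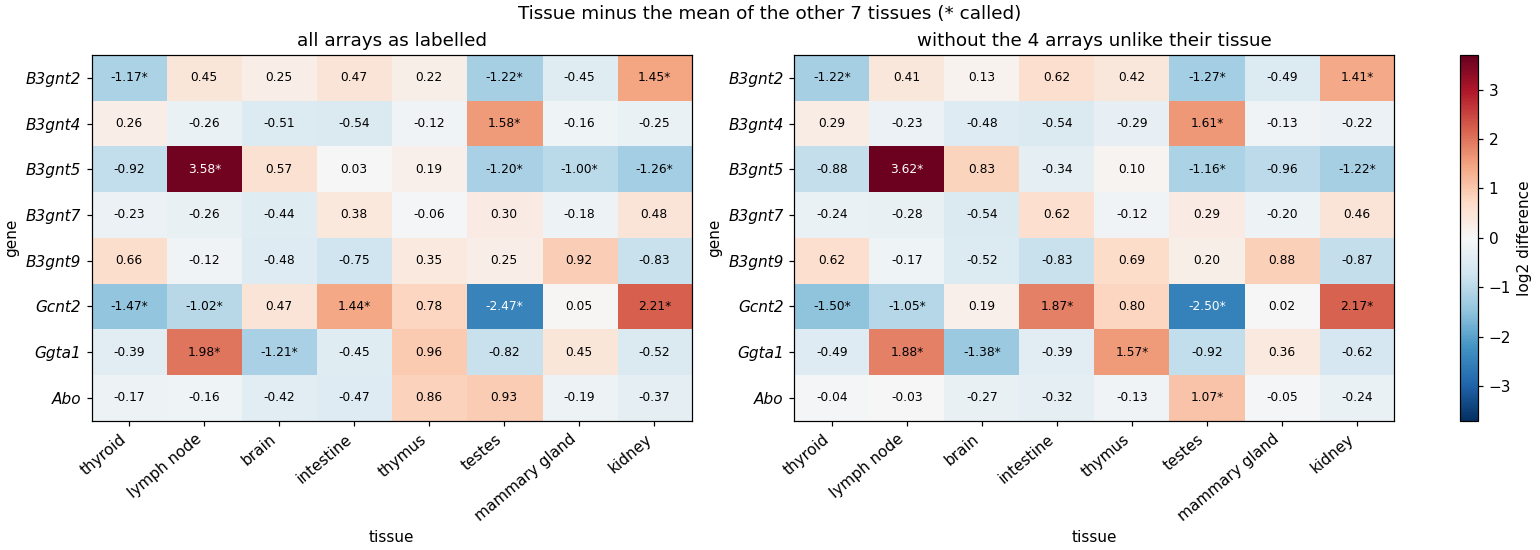
Log2 difference of each tissue (columns) from the mean of the other 7 for each gene (rows), with all arrays on the left and without the 4 arrays unlike their tissue on the right, where an asterisk marks a call and red and blue mark higher and lower. The darkest cell is B3gnt5 in lymph node (3.58 and 3.62), and Gcnt2 ranges from 2.21 in kidney to -2.47 in testes.

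Since tissue and line cannot be told apart between lines, each tissue was also set against the other 3 tissues of its own line. B3gnt5 and Ggta1 in lymph node kept differences of 3.23 ± 0.32 (adjusted p = 2.1e-11) and 2.33 ± 0.22 (adjusted p = 3.4e-12), and Gcnt2 in intestine reached 1.85 ± 0.29. Within the other line, Gcnt2 differed by 2.41 ± 0.23 in kidney and by -3.04 ± 0.27 in testes, B3gnt2 by 1.69 ± 0.17 and -1.42 ± 0.19, and B3gnt4 by 1.54 ± 0.09 in testes. The low B3gnt5 calls of testes, mammary gland and kidney were not made within the line, where the differences were -0.44, -0.22 and -0.51 (adjusted p = 0.21, 0.62 and 0.10). New calls within the line were B3gnt5 lower in thyroid (-2.02 ± 0.32), B3gnt5 and Ggta1 higher in thymus (1.17 ± 0.29 and 1.10 ± 0.20) and B3gnt9 lower in kidney (-1.17 ± 0.11). All values within the line are with all arrays, so they include the arrays unlike their tissue. The share of all probe sets called within the line was not counted.

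B3gnt5 varied within brain more than within any other tissue without the arrays unlike their tissue. It had 7.20 in KO animal 9100, against 4.07 and 4.31 in the other 2 KO animals. It had 6.94 in WT animal 9362 and 6.89 on the second array of WT animal 9099, against 4.37 in WT animal 9094. It had 6.59 in C57 animal F2, against 4.34 and 4.13 in the other 2 C57 animals. KO, line WT and C57 thus each held both high and low arrays. On the same 4 arrays Gcnt2 was lowest, at 4.62, 4.50, 4.77 and 5.47, against 6.41 to 6.99 on the other 5 brain-like arrays, and B3gnt2 was lowest as well, at 7.16, 7.30, 7.25 and 7.83, against 8.10 to 8.29. The intestine array of animal 9099 that resembled brain had the same combination, with B3gnt5 at 6.67, Gcnt2 at 4.49 and B3gnt2 at 7.26. Among all 909 genes, 91 had their 4 highest values and 94 their 4 lowest values on these same 4 of the 9 brain-like arrays, so the pattern was not limited to the LacNAc enzymes. It was chosen after the values were seen, and its source was not tested.

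The knockouts changed none of the 8 genes past the test in any of the 8 tissues. By limma at an adjusted p under 0.05, 0 of 8 were called in each tissue, against 0% of all 963 probe sets in thyroid, lymph node, brain, intestine, thymus and mammary gland, 0.312% in testes and 0.104% in kidney. At an unadjusted p under 0.05 the counts were 2 of 8 in thyroid, 1 in lymph node, 5 in thymus, 2 in testes and 2 in kidney, and 0 in brain, intestine and mammary gland. Among all 963 probe sets there were 42 in thyroid, 33 in lymph node, 202 in thymus, 124 in testes and 129 in kidney. Brain, intestine and mammary gland had 3, 2 and 97 of the 963. Intervals of the differences were wide for some genes and narrower for others, as the standard errors below show. For B3gnt5 in brain, which varied widely between animals, the 95% interval ran from -2.75 to 1.76, so a change of several fold in either direction lay within it.

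B3gnt9 in thyroid had the smallest p of that tissue among the 8 genes. It had 7.62, 6.98 and 7.16 in KO thyroids, against 6.59, 6.64 and 6.59 in WT thyroids, with no overlap. The difference was 0.65 ± 0.20, with an adjusted p of 0.75, so it did not pass the test across the array. B3gnt5 in thyroid also lay above WT in all 3 KO animals, at 4.29, 4.19 and 4.15, against 4.09, 4.10 and 4.02. These are 2 of 8 genes above WT without overlap, against 4.36% of all probe sets. Gcnt2 in thyroid had 3.93, 3.94 and 3.73 in KO, against 4.44, 4.67 and 3.79 in WT, and the ranges overlapped (-0.43 ± 0.18, adjusted p = 0.99).

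In testes 3 of 8 genes lay below WT in all DKO animals, B3gnt2, B3gnt7 and Gcnt2, against 10.7% of all probe sets. B3gnt2 had 6.40, 6.27 and 6.14 in DKO testes, against 6.80, 6.59 and 6.74 in WT testes. Its difference was -0.44 ± 0.12 (adjusted p = 0.26), and that of Gcnt2 -0.38 ± 0.13 (adjusted p = 0.30). All Gcnt2 values in testes lay below the 25th percentile of all values, 4.21. Over all probe sets of testes the median difference was -0.11, and over the 8 genes it was -0.15. Leaving out animal N9700 brought B3gnt2 past the test, at -0.40 (adjusted p = 0.046).

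In lymph node Abo had 4.22, 4.08 and 4.05 in KO, against 4.96, 4.51 and 4.59 in WT. It was the 1 gene of 8 below WT without overlap, against 8.0% of all probe sets, and its difference of -0.57 ± 0.19 did not pass the test (adjusted p = 0.80). B3gnt5, B3gnt2 and Ggta1 had positive differences there (0.65, 0.62 and 0.37) that rested on the array of WT animal 9094. Without it they were -0.12, 0.05 and -0.20. In brain and intestine Abo lay above WT in all KO animals, at 4.24, 4.26 and 4.29 in KO brain, against 4.11, 4.17, 4.04 and 4.09 on the 4 WT brain arrays. It was the 1 gene of 8 to do so in each tissue, against 2.28% and 10.6% of all probe sets, and the differences were 0.16 ± 0.09 and 0.31 ± 0.17 (adjusted p = 0.91 and 0.99). Without the arrays unlike their tissue, Abo and B3gnt7 lay above WT in brain, against 4.47% of all probe sets, and in intestine Abo and B3gnt9 lay above WT and B3gnt7 below it, against 23.5% and 12.8%. Without the array unlike intestine, B3gnt7 had 5.56 and 5.71 in KO intestines, against 6.11 and 6.10 in WT intestines, a difference of -0.47 ± 0.14 (adjusted p = 0.60).

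In arrays labelled thymus the largest differences came from the WT arrays unlike thymus. Abo differed by -2.09 ± 0.74 and Ggta1 by 1.24 ± 0.48 with all arrays (adjusted p = 0.23 for both), and by -0.10 and 0.01 without those 2 arrays, when 1 WT animal was left and was assumed to vary like the DKO animals. A fit of all groups of the line together called 4 of 8 genes in thymus with all arrays, against 27.7% of all probe sets (13.1% higher and 14.6% lower), and in mammary gland it called 0 of 8, against 3.53% (0.208% higher and 3.32% lower). With all arrays, B3gnt2 lay above WT without overlap, against 6.65% of all probe sets, and B3gnt4, B3gnt7 and Abo lay below it, against 7.58%. Without the 2 arrays, 2 genes lay above and 3 below the single WT value, against 20% and 13.9%. In kidney no gene separated the genotypes, against 0.519% of probe sets above and 2.80% below. Gcnt2 differed there by -0.35 ± 0.15 (adjusted p = 0.33) and Ggta1 by 0.19 ± 0.06 (adjusted p = 0.29), with Ggta1 at 5.64 to 5.83 in DKO, against 5.43 to 5.64 in WT. In mammary gland, with 2 WT animals, 0 of 8 separated the genotypes, against 1.77% above and 12.7% below, and the largest difference among the 8 genes was 0.55 ± 0.42, for Ggta1.

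**Figure D3:**
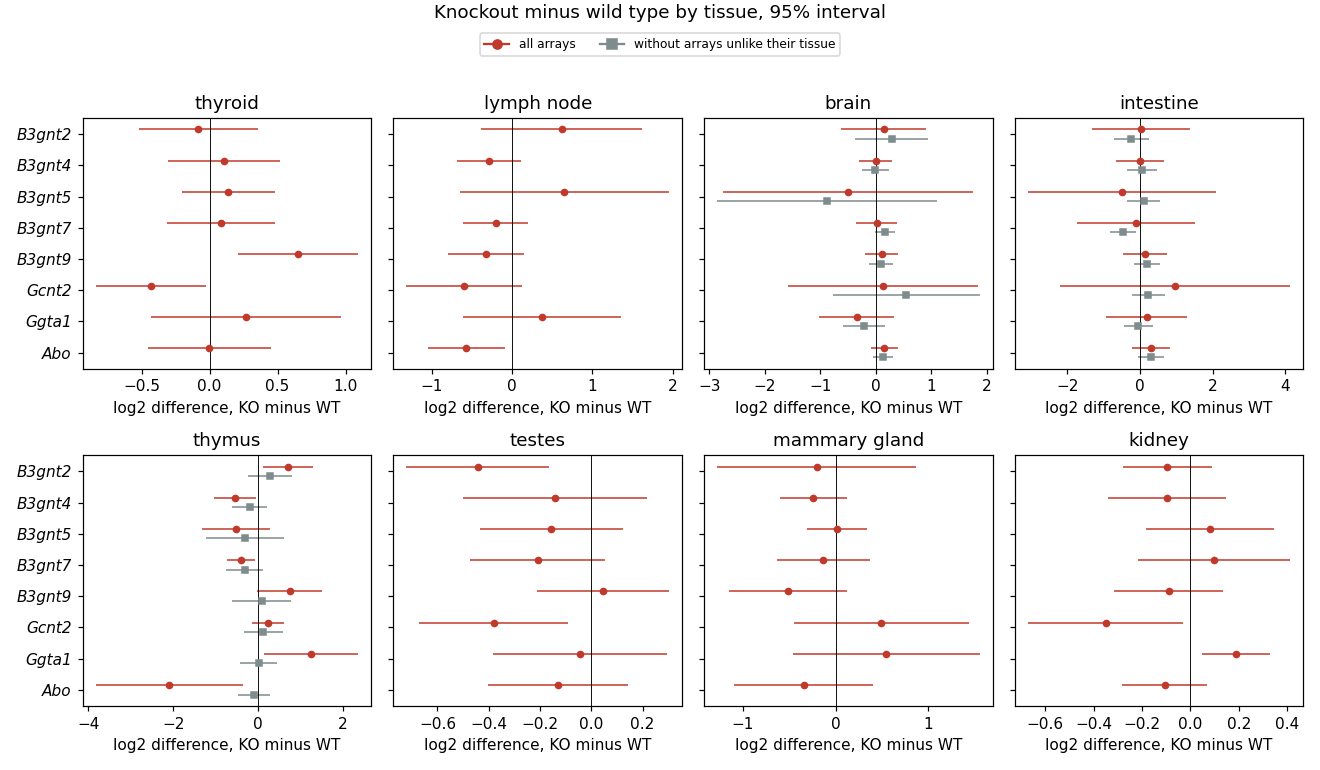
Log2 difference of KO (or DKO) minus WT (horizontal axis) with its 95% interval for each gene (rows) in each tissue (panels), with all arrays (circles) and, for brain, intestine and thymus, without the arrays unlike their tissue (squares). The panels have different horizontal scales. In thymus, Abo lies at -2.09 with all arrays and at -0.10 without those arrays, and Ggta1 at 1.24 and 0.01.

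A test of whether the knockout effect differed between the 4 tissues of a line called 0 of the 8 genes in either line. In the St6galnac2 line it called 0% of all 963 probe sets and had 10 at an unadjusted p under 0.05, with B3gnt9 and Abo among them (both adjusted p = 0.99). In the B4GALNT1 and B4GALNT2 line it called 3.43% of all probe sets, and the smallest adjusted p among the 8 genes was 0.086, for B3gnt9 and Abo. Without the arrays unlike their tissue every adjusted p of the 8 genes in that line was 0.50 or higher.

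WT mice of the St6galnac2 line were compared with C57 WT mice in brain and intestine. None of the 8 genes was called, against 0% of all probe sets in both tissues, and in each tissue 7 of 8 genes had a negative difference. In intestine 2 signs changed without the array unlike intestine. B3gnt5 went from 0.18 to -0.53 and B3gnt7 from -0.42 to 0.02. The median difference of the 8 genes was -0.28 in brain, against -0.14 over all probe sets, and -0.44 in intestine, against -0.25. B3gnt9 lay below C57 without overlap in both tissues, with differences of -0.34 ± 0.13 in brain and -0.73 ± 0.23 in intestine that did not pass the test (adjusted p = 0.42 and 0.37). B3gnt9 had 5.57, 5.57 and 5.78 in WT intestines of the line, against 5.96, 6.53 and 6.63 in C57 small intestines. In each tissue 2 of 8 genes lay below C57 without overlap, B3gnt4 and B3gnt9 in brain and B3gnt9 and Gcnt2 in intestine, against 21.1% and 22.7% of all probe sets, so the share was near the background. Without the arrays unlike their tissue the counts were 3 in brain and 4 in intestine, against 30.6% and 44.4%. Gcnt2 in intestine differed by -1.63, and by -0.82 without the array unlike intestine. C57 arrays carry no sex label, and the labels call that tissue small intestine in C57 and intestine in the line.

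Female and male mice of the B4GALNT1 and B4GALNT2 line were compared in kidney and mammary gland. In kidney 0 of 8 genes were called, against 9.03% of all probe sets, and in mammary gland 0 of 8, against 0.312%. At an unadjusted p under 0.05 there were 3 of 8 in kidney, against 230 of all 963 probe sets. Abo had 3.997 and 4.04 in DKO females and 4.10 in the WT female, against 4.15 to 4.53 in males. It was the 1 gene of 8 below males without overlap, against 6.44% of all probe sets, and its difference was -0.23 ± 0.08 (adjusted p = 0.12). B3gnt7 differed by 0.34 ± 0.15 (adjusted p = 0.20) and Ggta1 by 0.16 ± 0.07 (adjusted p = 0.16).

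Other genes of LacNAc synthesis were taken from 9 lists of 44 measured genes. The shares of all 963 probe sets called higher and lower stand in brackets beside each count. Kidney (11.2% and 8.72%) had 6 of the 44 higher and 2 lower, led by Fut9, a fucosyltransferase that makes Lewis x, at 6.17 ± 0.40, and Gcnt1, the core 2 O-glycan branching enzyme, at 4.26 ± 0.23. Lymph node (11.7% and 7.79%) had 3 higher and 4 lower, with the sialyltransferase St6gal1 at 1.96 ± 0.22 and Fut7, which makes sialyl Lewis x on leukocytes, at 1.22 ± 0.10 beside B3gnt5 and Ggta1, and the beta-4-galactosyltransferase B4galt6 at -1.69 ± 0.18. Brain (15% and 11.8%) had 11 higher and 6 lower, or 10 and 9 without the arrays unlike their tissue, among them B4galt6 at 2.72 ± 0.18 and the sulfotransferase Chst2 at 3.36 ± 0.29, with 3 of 4 galectins lower, Lgals1 at -2.62 ± 0.22. Intestine (10.8% and 9.97%) had 13 higher and 6 lower, or 14 and 10 without those arrays, with B3gnt3, which extends core 1 O-glycans, at 2.74 ± 0.28. Of the 6 beta-4-galactosyltransferases, 3 were higher and 1 lower in brain, and 3 were higher and 0 lower in intestine. Testes (8.52% and 19.2%) had 3 higher, among them Mgat4a, an N-glycan branching enzyme, at 2.17 ± 0.22, and 13 lower, among them 3 of 4 galectins, which bind LacNAc chains, and 2 of 4 sialyltransferases. Thyroid (6.54% and 6.44%) had 4 higher and 8 lower, thymus (5.61% and 2.80%) had 4 and 3, or 3 and 5 without those arrays, and mammary gland (10.5% and 2.70%) had 4 and 1, with Lgals1 at 2.37 ± 0.22 in mammary gland. In the knockout and C57 comparisons 0 of 44 were called with all arrays, and the smallest p in mammary gland was that of the sugar transporter Slc35a3, at 1.011 (adjusted p = 0.17). Between the sexes, kidney had 3 higher in females, with St3gal6 at 0.52 ± 0.11, and 3 lower, with the sulfotransferase Chst7 at -2.72 ± 0.27 (adjusted p = 1.4e-04).

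Likeness of pattern was measured as Pearson's r over the 18 medians of line, genotype and tissue, which share animals and, in part, tissues, so it is a description. Among the 8 genes, B3gnt2 and Gcnt2 were most alike with all arrays (r = 0.779, and 0.798 without the 4 arrays), followed by B3gnt5 and Ggta1 (0.724 and 0.627). B3gnt4 and Gcnt2 ran in opposite directions (-0.701 and -0.676). B3gnt4 and Abo, the testes genes, had r = 0.510 with all arrays and 0.956 without the 4. Beyond the 8 genes, B3gnt5 was most like the cytokine Il16 (0.944) and the cytokine receptor Il7r (0.937), and Ggta1 most like the cytokine receptor Il18r1 (0.912) and the adhesion molecule Icam1 (0.905), and these 4 genes all had their highest tissue median in lymph node. B3gnt4 was most like the hedgehog ligand Dhh (0.972) and Il11 (0.958), both highest in testes. Gcnt2 was most like the heparan sulfate enzyme Ndst1 (0.920) and the proteoglycan Agrn (0.917), both lowest in testes, and B3gnt2 most like the sialidase Neu1 (0.847) and the N-glycan enzyme Mgat1 (0.800). B3gnt7 was most like the hedgehog ligand Ihh (0.864) and the brush-border protein Cdhr5 (0.854), both highest in intestine, and B3gnt9 most like Mrc1 (0.864) and Cd248 (0.838), both highest in mammary gland. Abo was most like St6galnac1 (0.959, and 0.804 without the 4 arrays) and Gdf5 (0.920 and 0.756).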

How the data were processed

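Total RNA of mouse tissues was hybridised to a custom Affymetrix array of glycan genes, from 0.5 µg RNA per the labels' protocols. RMA (robust multi-array average) is named in the submitters' processing notes, with no version. Its log2 values were used as deposited by the authors. Of 1246 probe sets, 963 received a symbol (909 genes) through their RefSeq identifier, and only these were tested.

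Animals were the replicates. Where an animal gave 2 brain arrays (9099), their mean was used. Tests used limma 3.58.1 in R 4.3.3 (2-sided), with Benjamini-Hochberg adjustment over 963 probe sets within a comparison and sex as a covariate in knockout comparisons except testes (all male). Calls needed an adjusted p under 0.05, and, for a tissue against the other 7, a log2 difference of at least 1. The test of differing knockout effects had the animal as a random block. The animal pairs tissues because the labels give its number. The block correlation was -0.118 and 0.0734 in the 2 lines and -0.0318 over tissues. The procedure was tested on simulated data. Errors are standard errors, and precision is limited by the number of arrays.

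The named genes were all listed members, the targets, at most 4 called genes of the pathway lists per comparison by smallest p, and the 2 genes most like each member. Some of these pathway genes are not printed. Members and lists were chosen with earlier results of these data known. Promoter windows came from RefSeq (GRCm38.p6). Python 3.11.15, pandas 2.3.3, numpy 2.4.6 and matplotlib 3.10.9 were used.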

Additional observations from a re-analysis of the deposited data

Results flagged for a closer look

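B3gnt2 in the kidney of DKO animal N5895 was 8.53, apart from the other 4 DKO kidneys, whose nearest value was 8.82. The gap was 0.776 of the group's range, above Dixon's critical value of 0.71 for 5 samples. Gcnt2 in the kidney of WT animal N9686, the only female of that group, was 7.11, with the nearest of the other 3 at 7.57 and a gap of 0.887 of the range, above the critical value of 0.829 for 4 samples. Of 32 groups of values tested, 2 stood out in this way, and chance gives about 1 in 20.

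The direction of the knockout difference was opposite between tissues of a line for 2 genes. Abo was lower in every KO lymph node (-0.57), and higher in every KO brain (0.16) and KO intestine (0.31), than in all WT samples of the same tissue. The Abo medians of these tissues, without the arrays unlike their tissue, were 4.36, 4.19 and 4.08. They lay near the 25th percentile of all values, 4.21. The shares of all probe sets separated in the same way are given above for each tissue. B3gnt2 was higher in every DKO thymus (0.71) and lower in every DKO testis sample (-0.44) than in WT. Of the 3 WT thymus arrays behind the first B3gnt2 value, 2 were unlike thymus, and without them it was 0.28. These pairs of tissues were not tested against each other. The test over all 4 tissues of the line gave an adjusted p of 0.99 for Abo and 0.12 for B3gnt2 (limma), so neither passed, and 0.80 for B3gnt2 without the arrays unlike their tissue.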

How the results depend on the processing

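Of 2802 alternative values for single genes, 0 reversed a call, 23 lost one and 30 gained one, and 25 of 352 alternative counts moved by over 1.5 times. In thymus, a fit of all groups of the line called 4 of 8 genes between DKO and WT (B3gnt4, B3gnt9, Ggta1 and Abo, adjusted p = 0.0264, 0.0270, 0.0154 and 0.0078) where 27.7% of all probe sets were called, and leaving out each animal in turn gave 0 to 6, the 6 without WT animal N9700, whose removal leaves only arrays unlike thymus as WT. In testes that range was 0 to 1 between DKO and WT. Against the other 7 tissues it was 0 to 1 in thymus, 0 to 2 in mammary gland, and 2 to 3 in thyroid and in lymph node, and for knockout effects that differ between tissues of the DKO line 0 to 3, the 3 without N9700. With WT groups only, brain and intestine had 0 called (Ggta1 at -0.83 and Gcnt2 at 0.86), lymph node 2 (Gcnt2 lost, at -0.67), thymus 1 (Abo) and testes 2 (B3gnt4 and Gcnt2). The Abo difference in thymus was then 1.87, and 2 of the 3 WT thymus arrays were those unlike thymus. The share of all probe sets called with WT groups only was not counted. In mammary gland the WT groups gained B3gnt9 (1.28) and lost B3gnt5 (-1.07, adjusted p = 0.28). Thymus had 1 without the 4 arrays unlike their tissue and 2 against the other 3 tissues of its line. Mammary gland had 0 without the 4 arrays, against the other 3 tissues of its line, and with the replicate block (animal), where B3gnt5 was -0.99; that block changed no other count. In the DKO line the effect differed between tissues for 33 probe sets, against 13 with no replicate block, 6 without the 4 arrays and 17 after a second quantile normalization. Over all probe sets, the line-wide fit called 267 in thymus and 34 in mammary gland, against 0 within each tissue. Testes without a sex term was not run, since all animals were male. Groups of 2 to 5 animals limit what could be called, and low values such as Abo outside testes lay near the array's 25th percentile. The B3gnt5 medians of kidney, testes, mammary gland and thyroid lay below that percentile, as did the Gcnt2 medians of testes and thyroid.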
